A study of Mus musculus with 6 samples.

Results

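The genes described are 10 transcription factors that set the fate of B cells: Pax5, Ebf1, Spib, Mef2c, Bcl6, Bach2, Irf8, Irf4, Prdm1 and Xbp1. They were taken by gene name, and all 10 were found among the 35275 genes of the deposited expression table. Expression was measured by RNA sequencing of splenic B cells, as FPKM (fragments scaled to gene length and to the reads of the library). There were 3 libraries from mice that carry the CD40 ligand allele CD40LΔ5 and 3 from wild-type (WT) mice. All mice were of the strain C57BL/6, were 6 to 8 weeks old, had been immunised with SRBC (erythrocytes of sheep, against which antibodies need T cell help) and were sampled on day 8. B cells were taken from the spleen with a magnetic pan-B cell kit, so that all B cell stages the kit retains shared 1 library. What the CD40LΔ5 allele changes is not given in the sources used here. Nor do they say whether 1 animal gave 1 library, so the p-values measure the spread between these 6 libraries, which may be technical.

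The authors' deposited table of group means does not place the libraries as the sample labels do, and each factor is therefore compared both ways. Its MUT column averages 2 libraries with the WT label, replicates 1 and 2, with CD40LΔ5 replicate 2, which together are called the MUT set. Its WT column averages CD40LΔ5 replicates 1 and 3 with WT replicate 3, called the WT set. Both matches hold to within 3.33e-08 FPKM, while the next best set of 3 libraries misses by up to 1340 FPKM. CD40LΔ5 replicate 2 and WT replicate 3 are the 2 libraries that both sources place alike, and the other 4 carry opposite names. A library is always called by its label.

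A mature B cell keeps its identity through PAX5 and EBF1, which switch on genes such as those of the B cell receptor, and through the ETS factor SPIB and the MADS-box factor MEF2C. In a germinal centre BCL6 represses the plasma cell programme, IRF8 promotes Bcl6 expression, and BACH2 delays plasma cell differentiation by repressing Prdm1. IRF4 is induced by antigen receptor and CD40 signals and, when high, drives cells towards secretion. Prdm1 encodes BLIMP-1, which silences Pax5, Bcl6 and Spib in plasma cells, and XBP1 then expands the secretory apparatus. CD40 ligand on helper T cells is the signal that germinal centre B cells depend on. In bulk samples fewer cells of a type and less RNA per cell cannot be told apart.

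The libraries held 24320080 to 27866611 reads on genes. The B cell markers Cd79a and Cd79b, chains of the B cell receptor complex, were high throughout. Cd79a was at 1643 to 1884 FPKM under the CD40LΔ5 label and 1510.4 to 1999 FPKM under the WT label, and Cd79b at 1210.5 to 1335 FPKM for CD40LΔ5 and 1239 to 1359 FPKM for WT. Cd40lg, the gene of CD40 ligand, is a T cell gene and lay near the detection limit, at 0.118, 0.483 and 0.144 FPKM in CD40LΔ5 replicates 1, 2 and 3 and at 0.533, 0.428 and 0.203 FPKM in WT replicates 1, 2 and 3. The MUT set held the 3 higher values, 0.428 to 0.533 FPKM, and the WT set the 3 lower ones, 0.118 to 0.203 FPKM. These values rest on 4 to 17 reads, and whether the allele alters the transcript level is not given, so they do not check the labels. Immunoglobulin genes took 1.99% to 7.95% of the reads. The libraries labelled WT replicate 1 and CD40LΔ5 replicate 2 stood apart from the other 4 by low germinal centre genes, with a summed level of 10 such genes of 25.2 and 44.7 FPKM against 88.9 to 173 FPKM.

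Sequences are shown for the promoters of Prdm1, Xbp1 and Bcl6, the 3 factors whose levels differed most between libraries. Each window runs from 250 bases before to 50 bases after a transcription start in RefSeq (GRCm38.p6), read 5′ to 3′ on the gene's own strand. The windows are chr10:44458699-44458998 on the minus strand for Prdm1, chr11:5520391-5520690 on the plus strand for Xbp1, and chr16:23988803-23989102 and chr16:23981234-23981533 on the minus strand for the upstream and the downstream start of Bcl6. Capitals mark matches, on either strand, of 7 short motifs.
Prdm1: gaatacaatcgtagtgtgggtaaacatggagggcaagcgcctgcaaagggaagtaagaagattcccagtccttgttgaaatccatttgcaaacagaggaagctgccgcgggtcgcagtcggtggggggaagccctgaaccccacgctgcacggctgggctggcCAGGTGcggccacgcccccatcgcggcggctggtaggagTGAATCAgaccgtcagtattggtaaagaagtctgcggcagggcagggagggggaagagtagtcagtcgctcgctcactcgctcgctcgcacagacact
Xbp1: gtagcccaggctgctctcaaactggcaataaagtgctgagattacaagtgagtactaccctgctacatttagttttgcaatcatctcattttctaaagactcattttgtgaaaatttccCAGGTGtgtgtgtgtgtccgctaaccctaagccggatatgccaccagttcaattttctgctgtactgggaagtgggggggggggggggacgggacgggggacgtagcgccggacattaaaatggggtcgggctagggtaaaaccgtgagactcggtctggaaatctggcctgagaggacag
Bcl6 upstream start: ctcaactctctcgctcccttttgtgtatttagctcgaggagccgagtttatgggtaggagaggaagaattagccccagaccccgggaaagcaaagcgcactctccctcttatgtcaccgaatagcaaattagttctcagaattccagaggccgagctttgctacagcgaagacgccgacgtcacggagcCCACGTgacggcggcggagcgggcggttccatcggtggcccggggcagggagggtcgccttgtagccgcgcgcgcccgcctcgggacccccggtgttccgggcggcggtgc
Bcl6 downstream start: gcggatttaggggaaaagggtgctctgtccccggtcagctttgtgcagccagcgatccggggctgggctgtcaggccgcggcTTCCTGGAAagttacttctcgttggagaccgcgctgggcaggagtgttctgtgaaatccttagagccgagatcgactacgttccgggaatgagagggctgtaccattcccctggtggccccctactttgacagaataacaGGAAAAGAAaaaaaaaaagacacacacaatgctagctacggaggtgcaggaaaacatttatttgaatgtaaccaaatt

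In the Prdm1 window the capitals are CAGGTG, the E-box of E2A proteins, 87 bases before the start, and TGAATCA, 48 bases before it. TGAATCA matches the searched letters TGANTCA, which leave the middle base open. The core shared by AP-1 and the BACH2-MAF element has C or G there, so TGAATCA is not that core. Xbp1 holds CAGGTG 131 bases before its start. The upstream Bcl6 window holds CCACGT, the reverse complement of the XBP1 motif ACGTGG, 61 bases before its start. The downstream one holds TTCCTGGAA, a match of the BCL6 motif TTCCTNGAA, 168 bases before its start, and GGAAAAGAA, a match of GGAANNGAA of the PU.1-IRF composite, 28 bases before it. The matches in these windows do not overlap each other. The other motifs searched were TCCCNNGGG of EBF1 and GTGAAAG of BLIMP-1, neither of which is in any of the 15 windows of the 10 genes. Of all 32851 windows in the table, 20.2% hold CAGGTG, 7.81% TGANTCA, 8.31% ACGTGG, 8.24% GGAANNGAA, 6.56% TCCCNNGGG, 4.24% GTGAAAG and 1.59% TTCCTNGAA. A match is a description of the letters and no evidence of binding. The RefSeq start of Prdm1 lies 69753 bases inside the gene as the deposited coordinates give it, and the downstream start of Bcl6 7569 bases inside.

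Spib was the most abundant of the factors, and Prdm1 by far the least. Over the 6 libraries the mean level was 333 FPKM for Spib, 186 FPKM for Pax5, 163 FPKM for Irf8, 147 FPKM for Xbp1 and 78.0 FPKM for Mef2c. Below these came Ebf1 at 46.7 FPKM, Irf4 at 36.7 FPKM, Bcl6 at 29.9 FPKM, Bach2 at 27.6 FPKM and Prdm1 at 2.42 FPKM. The ranges of neighbours in this order did not overlap between Spib and Pax5, Mef2c and Ebf1, Ebf1 and Irf4, or Bach2 and Prdm1. They did overlap between Pax5, Irf8 and Xbp1, between Xbp1 and Mef2c, and between Irf4, Bcl6 and Bach2. Irf8 was above Xbp1 in 3 of 6 libraries, and Bcl6 above Bach2 in 3 of 6, so that neither pair has a fixed order.

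Xbp1, Prdm1 and Bcl6 varied more between libraries than the other 7 factors. The highest library exceeded the lowest 4.58-fold for Xbp1, 3.24-fold for Prdm1 and 1.78-fold for Bcl6, but 1.16-fold for Irf8, 1.21-fold for Irf4, 1.23-fold for Pax5 and for Spib, 1.34-fold for Ebf1, 1.39-fold for Mef2c and 1.40-fold for Bach2. On the log2(FPKM + 1) scale the standard deviation over the 6 libraries was 0.89 for Xbp1, 0.46 for Prdm1 and 0.35 for Bcl6. Of the 11252 genes tested, 1.89% had a standard deviation at least as large as that of Xbp1, 7.03% as that of Prdm1 and 12.1% as that of Bcl6. For Irf8, at 0.08, the share was 89.3%. Prdm1 rested on 139 to 501 reads per library, a counting error of 8.48% to 4.47%, while the other 9 factors had 2198 to 26664 reads.

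**Figure D1:**
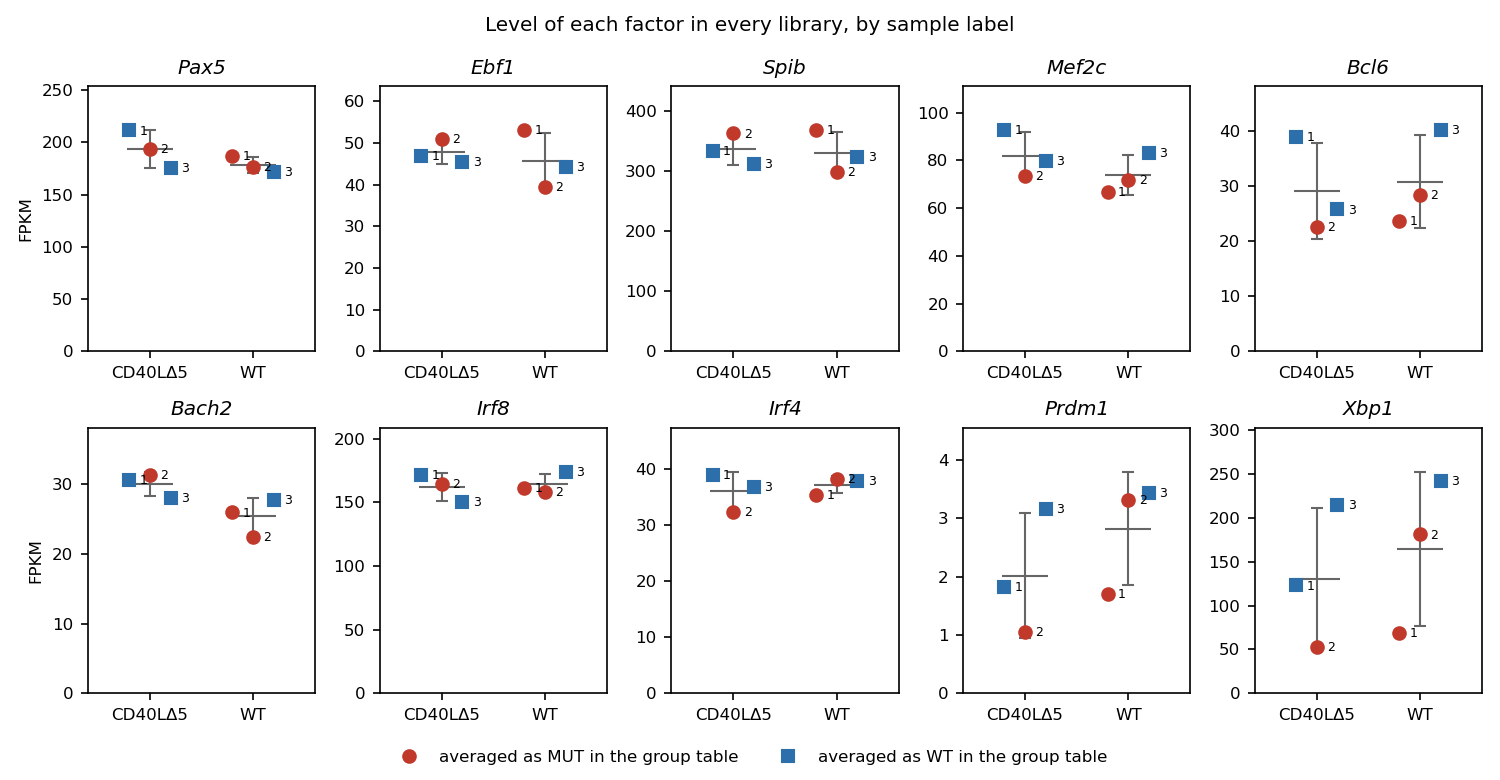
FPKM of each factor (vertical axes, from 0, each with its own scale) in the 3 libraries labelled CD40LΔ5 and the 3 labelled WT, with the replicate number beside each point and the mean and SD of each label in grey. Red circles are libraries that the authors' table averages as MUT and blue squares those it averages as WT. Xbp1, Prdm1 and Bcl6 spread widely within each label, and the 3 Bach2 values labelled CD40LΔ5 lie just above those labelled WT.

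The factors were compared with limma on log2(FPKM + 1), fitted over all 11252 genes that averaged 1 FPKM or more, all 10 factors included, and with Benjamini-Hochberg adjustment. By the labels, none of the 10 passed an adjusted p of 0.05, where 0% of all genes did, and each had an adjusted p of 0.999993. At an unadjusted p under 0.05 there were also 0 of 10 factors, against 103 genes (0.915%) higher and 36 genes (0.32%) lower under the CD40LΔ5 label, and limma voom on whole reads recovered from the FPKM values called 0 genes too. By the sets of the authors' table, none of the 10 passed where 0.0267% of all genes did (3 genes). At an unadjusted p under 0.05 the 2 factors Bcl6 and Mef2c were lower in the MUT set, against 3.61% of all genes lower and 9.39% higher (406 and 1057 genes, but 751 and 772 after quantile normalization). The median log2 difference of the 10 factors was 0.00 by the labels and -0.11 by the table, beside 0.01 and 0.05 over all genes tested. The 2 comparisons use the same 6 libraries and are not independent.

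**Figure D2:**
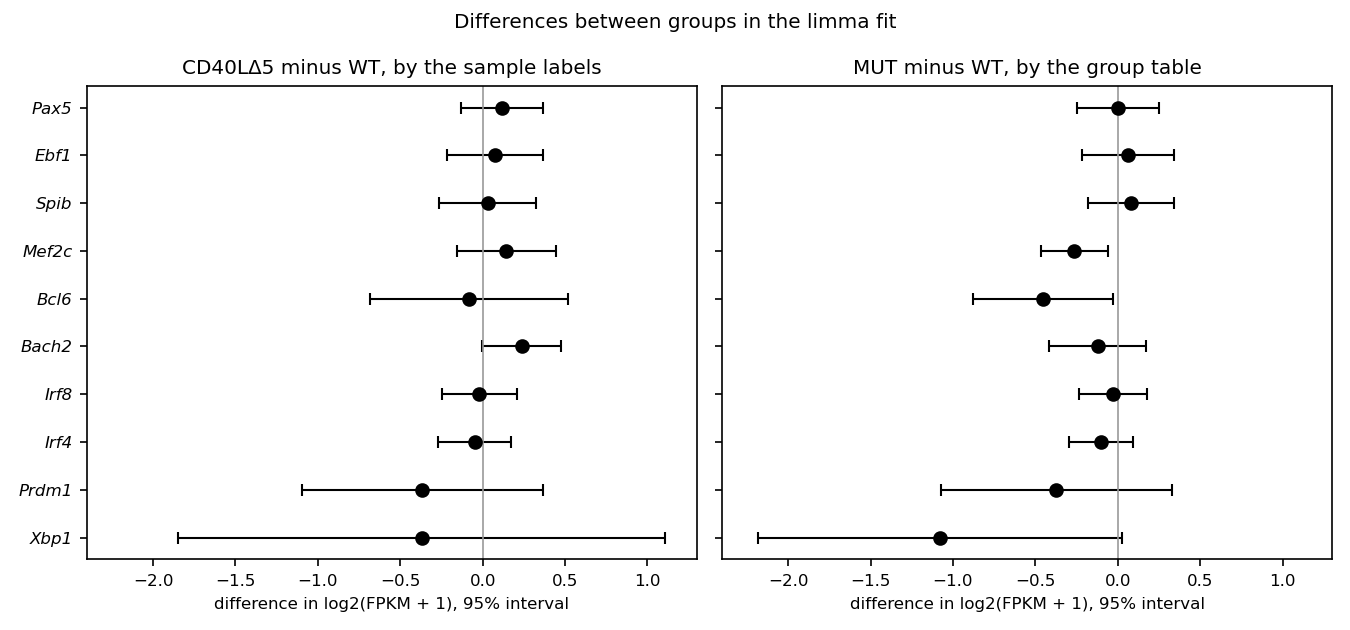
Difference in log2(FPKM + 1) of each factor with its 95% interval from limma, for CD40LΔ5 minus WT by the sample labels (left) and MUT minus WT by the authors' table (right). The intervals are widest for Xbp1, and by the table those of Bcl6 (-0.88 to -0.03) and Mef2c (-0.47 to -0.06) lie below 0 before adjustment.

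Pax5 and Ebf1, the pair that commits cells to the B lineage and keeps them there, varied less than Xbp1, Prdm1 and Bcl6. Of the genes tested, 67.9% had a standard deviation at least as large as that of Pax5, and 47.1% as that of Ebf1. Pax5 (ENSMUSG00000014030, chromosome 4, 44531145 to 44710487, minus strand) was at 211, 194 and 175 FPKM in CD40LΔ5 replicates 1, 2 and 3 and at 187, 176 and 171 FPKM in WT replicates 1, 2 and 3. CD40LΔ5 replicates 1 and 2 were the highest libraries, above every WT library, and CD40LΔ5 replicate 3 lay among the WT values. The log2 difference was 0.12 ± 0.10 (SE) by the labels, with a 95% interval of -0.13 to 0.36. By the table it was 0.00 ± 0.11 (interval -0.25 to 0.25), with 176 to 194 FPKM in the MUT set and 171 to 211 FPKM in the WT set, and its sign turned with the scaling.

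Ebf1 (ENSMUSG00000057098, chromosome 11, 44617317 to 45008091, plus strand) was at 46.8, 51.0 and 45.4 FPKM under the CD40LΔ5 label and at 53.0, 39.5 and 44.2 FPKM under the WT label. WT replicate 1 and CD40LΔ5 replicate 2, the libraries with the least germinal centre RNA, held its 2 highest values. Its log2 difference came to 0.07 ± 0.12 (SE) by the labels and 0.06 ± 0.12 by the table, both with intervals that span 0 (-0.22 to 0.36 and -0.22 to 0.34). The antisense genes Gm12462 in Pax5 and Gm12158 in Ebf1 were listed at no more than 2.16 and 5.23 FPKM. The library kit does not mark the strand, so their reads and those of the factors cannot be told apart where they overlap. The overlaps are of whole gene spans, introns included, and shared exons were not looked for.

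Spib, an ETS factor related to PU.1 that supports B cell receptor signalling (ENSMUSG00000008193, chromosome 7, 44525995 to 44532071, minus strand), was at 333, 362 and 312 FPKM under the CD40LΔ5 label and at 368, 298 and 323 FPKM under the WT label. Its 2 highest libraries were again WT replicate 1 and CD40LΔ5 replicate 2, and WT replicate 2 was lowest for both Spib and Ebf1. By log2 difference Spib was at 0.03 ± 0.12 (SE) by the labels and 0.08 ± 0.11 by the table. The intervals were -0.26 to 0.32 and -0.18 to 0.34. Quantile normalization moved the differences of Spib to 0.13 by the labels and 0.32 by the table, the latter with an interval of -0.18 to 0.82.

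Mef2c, which acts downstream of antigen receptor signalling in the proliferation and survival of B cells (ENSMUSG00000005583, chromosome 13, 83504034 to 83667079, plus strand), was lower in every library of the MUT set than in any of the WT set. It stood at 66.9, 72.0 and 73.4 FPKM in the MUT set (WT replicate 1, WT replicate 2 and CD40LΔ5 replicate 2) and at 83.3, 92.7 and 79.9 FPKM in the WT set (WT replicate 3, then CD40LΔ5 replicates 1 and 3). It was the only factor whose sets did not overlap by the table, where 4.79% of all genes lay wholly lower and 12.1% wholly higher. This gave a log2 difference of -0.26 ± 0.09 (SE), with a limma adjusted p of 0.353. The difference was -0.24 without WT replicate 1 and CD40LΔ5 replicate 2, a setting added after the data were seen. It leaves WT replicate 2 as the only library of the MUT set. The labels gave 82.0 ± 9.81 FPKM for CD40LΔ5 and 74.1 ± 8.37 FPKM for WT (SD, n = 3 each), a log2 difference of 0.14 ± 0.12 (SE) in the other direction.

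Bcl6, the repressor that germinal centre B cells require (ENSMUSG00000022508, chromosome 16, 23965052 to 23988852, minus strand), did not follow the labels. It stood at 38.9, 22.5 and 25.7 FPKM in CD40LΔ5 replicates 1, 2 and 3 and at 23.7, 28.4 and 40.1 FPKM in WT replicates 1, 2 and 3. Each label thus held 1 library near 40 FPKM, and the others lay at 22.5 to 28.4 FPKM. The log2 difference by the labels was -0.08 ± 0.25 (SE; interval -0.68 to 0.52), and it turned to 0.07 without CD40LΔ5 replicate 2 and to 0.12 without WT replicate 3.

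By the table Bcl6 averaged 24.9 ± 3.13 FPKM in the MUT set and 34.9 ± 7.95 FPKM in the WT set (SD, n = 3 each), a log2 difference of -0.45 ± 0.18 (SE; limma adjusted p = 0.367). The sets overlapped, since WT replicate 2 (28.4 FPKM, MUT set) was above CD40LΔ5 replicate 3 (25.7 FPKM, WT set). The difference stayed negative whichever single library was left out, from -0.65 to -0.34, and was -0.26 without WT replicate 1 and CD40LΔ5 replicate 2 together, the 2 libraries with the least Bcl6. That setting leaves WT replicate 2 as the only library of the MUT set. Germinal centre genes varied alongside Bcl6, and their summed level was 25.2 to 135 FPKM in the MUT set and 88.9 to 173 FPKM in the WT set. The 2 libraries with the most Bcl6, WT replicate 3 and CD40LΔ5 replicate 1, were also the 2 with the most germinal centre RNA, at 158 and 173 FPKM. The part of cell composition in the Bcl6 difference was not tested.

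Bach2, the BTB repressor that holds back plasma cell differentiation (ENSMUSG00000040270, chromosome 4, 32238804 to 32586108, plus strand), was the only factor whose labels did not overlap. It stood at 30.6, 31.3 and 28.0 FPKM in CD40LΔ5 replicates 1, 2 and 3 and at 25.9, 22.4 and 27.7 FPKM in WT replicates 1, 2 and 3. The nearest values, 28.0 FPKM in CD40LΔ5 replicate 3 and 27.7 FPKM in WT replicate 3, differed by less than the spread within either label. Of all genes tested, 2.98% lay wholly higher and 1.32% wholly lower by the labels, and the 1 of 10 factors is to be read against these shares. Its log2 difference was 0.24 ± 0.10 (SE), with an unadjusted p of 0.0529 and a limma adjusted p of 0.999993 like that of all 10 factors, and it ran from 0.15 to 0.30 when 1 library was left out. By the table the difference was -0.12 ± 0.12, so the direction turned with the grouping.

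The genes Bach2os (antisense) and Bach2it1 (sense intronic) lie within Bach2 and were listed at 1.51 to 3.37 FPKM and 2.14 to 7.62 FPKM. This overlap is of whole gene spans, introns included, and shared exons were not looked for. Reads of these and of Bach2 cannot be told apart where they overlap, and their part in the Bach2 difference was not tested.

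Irf8, an interferon regulatory factor that acts with PU.1 in B cells and is also high in dendritic cells and macrophages (ENSMUSG00000041515, chromosome 8, 120736358 to 120756694, plus strand), varied least. It stood at 172, 165 and 150 FPKM under the CD40LΔ5 label and at 161, 158 and 174 FPKM under the WT label. The log2 difference was -0.02 ± 0.10 (SE; interval -0.25 to 0.21) by the labels and -0.03 ± 0.09 (interval -0.24 to 0.18) by the table. Quantile normalization turned both, to 0.06 and 0.09. The protein-coding gene Gm20388 overlaps Irf8 on the same strand over 20337 bases and was listed at 0 FPKM in every library. Macrophage markers spanned 71.4 to 276 FPKM in sum with their highest level in WT replicate 1, where Irf8 was at 161 FPKM. The 6 markers of conventional dendritic cells summed to 4.08 to 7.33 FPKM over the libraries, of which Flt3 (up to 2.79 FPKM) and Itgax (up to 2.24 FPKM) passed the level for testing, while Clec9a and Xcr1 reached 0.55 and 0.26 FPKM. The 5 plasmacytoid markers summed to 13.3 to 32.4 FPKM for CD40LΔ5 and 12.9 to 19.0 FPKM for WT. Most of this was Pacsin1 (8.11 to 10.7 FPKM) and Klk1 (1.43 to 20.0 FPKM), whereas Siglech was at 0.488 to 5.18 FPKM. Their part in the Irf8 values was not tested.

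Irf4, the dose-dependent factor of activation and plasma cell differentiation (ENSMUSG00000021356, chromosome 13, 30749226 to 30766927, plus strand), was also steady. It stood at 39.0, 32.3 and 36.9 FPKM under the CD40LΔ5 label and at 35.5, 38.3 and 38.0 FPKM under the WT label. The lowest values were in CD40LΔ5 replicate 2 and WT replicate 1, as for Xbp1, Prdm1 and Bcl6, but over a far smaller range. Its log2 difference was -0.05 ± 0.09 (SE; interval -0.27 to 0.17) by the labels and -0.10 ± 0.08 (interval -0.30 to 0.09) by the table. Without CD40LΔ5 replicate 2 the label difference turned to 0.03.

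Prdm1 (ENSMUSG00000038151, chromosome 10, 44437177 to 44528501, minus strand), the least abundant factor, stood at 1.82, 1.06 and 3.17 FPKM in CD40LΔ5 replicates 1, 2 and 3 and at 1.71, 3.32 and 3.44 FPKM in WT replicates 1, 2 and 3. The 6 libraries fell into 3 with 1.06 to 1.82 FPKM and 3 with 3.17 to 3.44 FPKM, and each label and each set of the table held some of both. The mean was 2.02 ± 1.07 FPKM for CD40LΔ5 and 2.82 ± 0.967 FPKM for WT (SD, n = 3 each), a log2 difference of -0.37 ± 0.31 (SE; interval -1.10 to 0.36). By the table it was 2.03 ± 1.16 FPKM in the MUT set and 2.81 ± 0.867 FPKM in the WT set, a difference of -0.37 ± 0.30 (limma adjusted p = 0.578).

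Xbp1, whose product drives the secretory apparatus (ENSMUSG00000020484, chromosome 11, 5520659 to 5525893, plus strand), had the widest spread. It stood at 123, 52.8 and 214 FPKM in CD40LΔ5 replicates 1, 2 and 3 and at 69.1, 181 and 242 FPKM in WT replicates 1, 2 and 3. Each label held a low and a high library, so that the log2 difference by the labels was -0.37 ± 0.62 (SE; interval -1.85 to 1.11), and it turned to 0.16 without CD40LΔ5 replicate 2. A value per gene does not tell the spliced form of the Xbp1 transcript, which encodes the active factor, from the unspliced one.

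By the table Xbp1 averaged 101 ± 69.8 FPKM in the MUT set and 193 ± 62.3 FPKM in the WT set (SD, n = 3 each). The log2 difference was -1.08 ± 0.47 (SE), with an interval of -2.18 to 0.02 and a limma adjusted p of 0.389, and it ran from -1.60 to -0.72 when 1 library was left out. The sets overlapped, since WT replicate 2 at 181 FPKM, of the MUT set, was above CD40LΔ5 replicate 1 at 123 FPKM, of the WT set. Without both WT replicate 1 and CD40LΔ5 replicate 2, a setting added after the data were seen, the difference was -0.03, and that of Prdm1 turned to 0.21. Since these are the 2 libraries with the least Xbp1 and the least Prdm1, and both are of the MUT set, a smaller difference follows from their choice. WT replicate 2 is then the only library left in that set.

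Plasma cell genes varied alongside Prdm1 and Xbp1. The summed level of 9 such genes, among them Igj, the joining chain, and Mzb1, an endoplasmic reticulum chaperone of antibody-secreting cells, was 2520, 1243 and 5563 FPKM in CD40LΔ5 replicates 1, 2 and 3 and 1448, 5768 and 5579 FPKM in WT replicates 1, 2 and 3. Most of this sum was Igj (653 to 3627 FPKM) and Mzb1 (374 to 1106 FPKM), whereas Tnfrsf17 was at 1.33 to 5.50 FPKM. The 3 highest of these libraries, at 5563 to 5768 FPKM, were the 3 with the most Prdm1 and the most Xbp1, and the lowest and the second lowest library were the same for all 3 measures. CD40LΔ5 replicate 1 combined a low plasma cell level with the highest germinal centre level, at 173 FPKM, and with high Bcl6. All 9 plasma cell genes lay below 0 in the log2 difference by the labels and by the table (medians -0.35 and -0.81), and 0 of 9 were called in either. Whether Xbp1 and Prdm1 differ per plasma cell was not tested and cannot be told apart from the number of such cells.

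**Figure D3:**
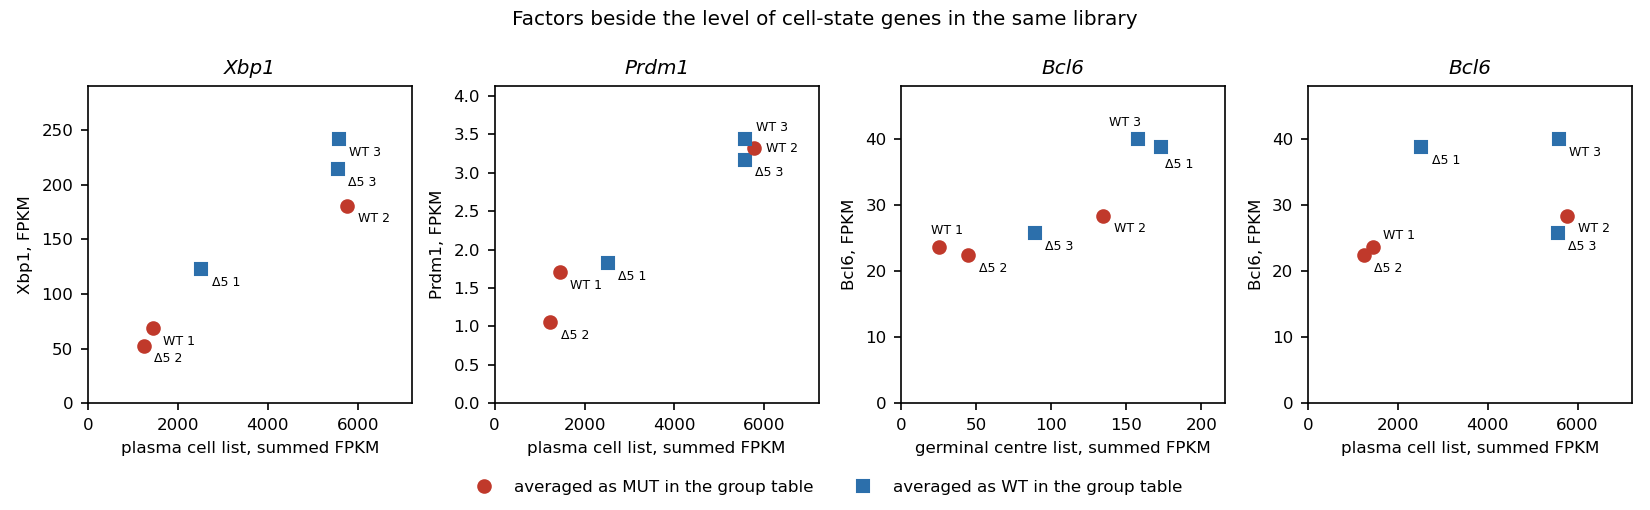
FPKM of Xbp1, Prdm1 and Bcl6 (vertical) against the summed FPKM of 9 plasma cell or 10 germinal centre genes (horizontal) in the same library, all axes from 0, with each point named by its label (Δ5 for CD40LΔ5). Xbp1 and Prdm1 are high in the 3 libraries with 5563 FPKM or more of plasma cell genes, whereas Bcl6 is highest in the 2 with the most germinal centre RNA.

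The pair of libraries that the labels and the table place alike allows a description without a test, as there is 1 library on each side. Xbp1 was 52.8 FPKM in CD40LΔ5 replicate 2 and 242 FPKM in WT replicate 3, a ratio of 0.218. The ratio was 0.308 for Prdm1 and 0.562 for Bcl6. The remaining 7 factors had ratios of 0.851 (Irf4) to 1.15 (Ebf1), with Pax5, Bach2, Spib and Ebf1 above 1 and Irf8, Mef2c and Irf4 below. CD40LΔ5 replicate 2 also had the lowest summed level of plasma cell genes, 1243 FPKM in it and 5579 FPKM in WT replicate 3.

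**Figure D4:**
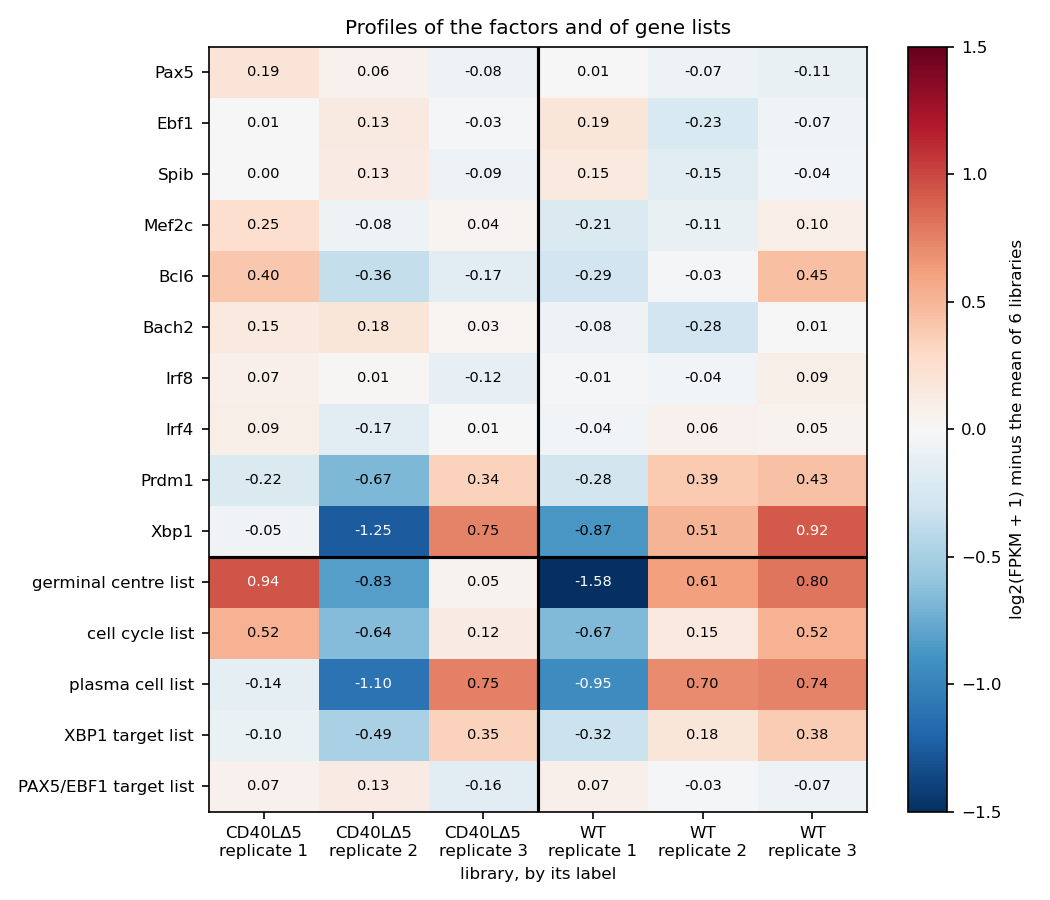
Log2(FPKM + 1) of each factor, and the mean over the tested genes of 5 lists, minus the mean of the 6 libraries (colour and printed value), with libraries in columns by their labels. Xbp1 and Prdm1 follow the plasma cell and XBP1 target lists, Bcl6 is highest where the germinal centre list is high, and Pax5, Spib, Irf8 and Irf4 stay within 0.19 of their means.

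Genes that XBP1 activates were compared next. Of 16 secretory genes of this list all 16 lay below 0 by the labels (median log2 difference -0.14, beside 0.01 over all genes) and by the table (median -0.36, beside 0.05), and 0 of 16 were called in either. The mean log2(FPKM + 1) of the list, minus that of the 6 libraries, was -0.10, -0.49 and 0.35 in CD40LΔ5 replicates 1, 2 and 3. It was -0.32, 0.18 and 0.38 in WT replicates 1, 2 and 3. Each label thus held low and high libraries, and the 16 signs are not independent of each other. The part of plasma cell number in these differences was not tested. The genes with the smallest unadjusted p by the table, Hyou1, Dnajb11 and Edem1, are given first and are not typical of the list. Pdia4, with the smallest by the labels, had a log2 difference of -0.28 by the table and -0.23 by the labels, and Sec61b had -0.12 by the table. Hyou1, a chaperone of the endoplasmic reticulum, averaged 39.1 ± 7.13 FPKM in the MUT set and 55.9 ± 8.57 FPKM in the WT set (SD, n = 3 each; log2 difference -0.51, limma adjusted p = 0.352), beside a log2 difference of -0.13 by the labels. Edem1, which targets misfolded glycoproteins for degradation, averaged 48.4 ± 18.9 FPKM in the MUT set and 79.0 ± 16.2 FPKM in the WT set, a log2 difference of -0.74, beside -0.17 by the labels. Dnajb11, a co-chaperone, averaged 47.1 ± 8.10 FPKM in the MUT set and 62.9 ± 7.79 FPKM in the WT set, a log2 difference of -0.42, beside -0.13 by the labels. Of 5 further genes of the unfolded protein response, Atf6, a membrane-bound sensor, averaged 15.7 ± 0.509 FPKM in the MUT set and 18.7 ± 1.44 FPKM in the WT set (log2 difference -0.24, limma adjusted p = 0.355). By the labels its log2 difference was 0.08, in the other direction. Here too 0 of 5 were called.

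Genes that PAX5 or EBF1 activates had small differences, like Pax5 and Ebf1. Of 12 genes, 8 were above 0 by the labels (median 0.03) and 10 by the table (median 0.11, beside 0.05 over all genes), and 0 of 12 were called in either. Blk, a Src-family kinase of B cells, averaged 234 ± 16.3 FPKM in the MUT set and 191 ± 24.6 FPKM in the WT set (SD, n = 3 each; log2 difference 0.30, limma adjusted p = 0.365), beside a log2 difference of 0.03 by the labels. Ciita, the activator of MHC class II genes, averaged 108 ± 11.1 FPKM under the CD40LΔ5 label and 102 ± 8.52 FPKM under the WT label, a log2 difference of 0.08, which was -0.16 by the table. Cr2 has 2 entries, and the more abundant was used.

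Partners of the factors and other regulators of B cells were more often above 0 by the labels than by the table. Over all genes 55.5% were above 0 by the labels (median 0.01) and 62.0% by the table (median 0.05). Of 8 corepressors and partners of BCL6 and BACH2, 6 were above 0 by the labels (median 0.08) and 4 by the table (median -0.03), with 0 called. Bcor, a corepressor that BCL6 recruits, averaged 18.1 ± 1.61 FPKM in the MUT set and 21.1 ± 1.22 FPKM in the WT set (SD, n = 3 each; log2 difference -0.21, limma adjusted p = 0.380). By the labels its log2 difference was 0.12, in the other direction.

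Of 9 partners of IRF4 and IRF8, 6 were above 0 by the labels (median 0.01) and 2 by the table (median -0.09), again with 0 called. Batf3, an AP-1 factor of dendritic cells and activated lymphocytes, averaged 1.56 ± 0.289 FPKM in the MUT set and 0.629 ± 0.0845 FPKM in the WT set (log2 difference 0.65, limma adjusted p = 0.343). By the labels Batf3 averaged 0.876 ± 0.372 FPKM for CD40LΔ5 and 1.31 ± 0.676 FPKM for WT, a log2 difference of -0.27 in the other direction. Of 22 tested genes among 23 other regulators, 16 were above 0 by the labels (median 0.05) and 8 by the table (median -0.06), with 0 called. Id2, an inhibitor of E proteins, averaged 8.11 ± 0.684 FPKM under the CD40LΔ5 label and 10.4 ± 1.16 FPKM under the WT label, a log2 difference of -0.32, which was 0.12 by the table. Zbtb20, a zinc finger repressor that supports plasma cells, averaged 3.45 ± 0.614 FPKM for CD40LΔ5 and 2.39 ± 0.278 FPKM for WT, a log2 difference of 0.39, which was 0.09 by the table. Mef2b, a paralogue of Mef2c with a role in germinal centres, lay below the level for testing.

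Germinal centre and cell cycle genes all lay below 0 by the table but not by the labels, and none was called. Of 10 germinal centre genes 8 were above 0 by the labels (median 0.10) and 0 by the table (median -1.18). Of 6 cell cycle genes 3 were above 0 by the labels (median -0.01) and 0 by the table (median -0.76). Basp1 averaged 9.34 ± 5.96 FPKM in the MUT set and 21.4 ± 5.83 FPKM in the WT set (SD, n = 3 each; log2 difference -1.23, limma adjusted p = 0.352), beside a log2 difference of 0.08 by the labels. Top2a, the topoisomerase of dividing cells, averaged 17.2 ± 5.91 FPKM in the MUT set and 33.5 ± 6.71 FPKM in the WT set (log2 difference -0.95, limma adjusted p = 0.343), beside 0.00 by the labels. The summed level of the 6 cell cycle genes was 46.5 to 84.4 FPKM in the MUT set and 85.5 to 117 FPKM in the WT set.

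Summed markers of natural killer cells and of T cells separated the sets of the table, beside the differences of Bcl6, Mef2c and Xbp1. Natural killer cell markers summed to 44.7 to 55.7 FPKM in the MUT set and 21.5 to 32.8 FPKM in the WT set, without overlap. The largest part was Gzma, at 21.8 to 22.6 FPKM in the MUT set and 6.41 to 9.77 FPKM in the WT set. Taken singly, Prf1 and Klrd1 did not overlap between the sets either, whereas Klrb1c, Ncr1 and Nkg7 did. T cell markers summed to 27.6 to 29.9 FPKM in the MUT set and 21.9 to 24.5 FPKM in the WT set, also without overlap. Of 6 natural killer cell genes 6 were above 0 by the table, 3 of them at an unadjusted p under 0.05, and the smallest limma adjusted p was 0.0677, for Gzma. Of 6 tested T cell genes 5 were above 0 by the table, 3 of them at an unadjusted p under 0.05. Over all genes tested 62.0% were above 0 by the table, and 9.39% were higher at an unadjusted limma p under 0.05. All 8 macrophage genes and all 5 erythroid genes were above 0 by the table too (medians 0.72 and 0.59), and all 8 neutrophil genes were below 0 (median -1.55). Their sums overlapped between the sets, however. Macrophage markers summed to 109 to 276 FPKM in the MUT set and 71.4 to 115 FPKM in the WT set. Erythroid markers summed to 296 to 456 and 125 to 429 FPKM, and neutrophil markers to 69.3 to 81.1 and 44.6 to 582 FPKM, in the same order.

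By the labels the sums of these lists overlapped. Natural killer cell markers summed to 21.5 to 55.7 FPKM for CD40LΔ5 and 27.9 to 50.2 FPKM for WT, and T cell markers to 22.8 to 27.6 FPKM for CD40LΔ5 and 21.9 to 29.9 FPKM for WT. Macrophage markers summed to 90.8 to 115 FPKM for CD40LΔ5 and 71.4 to 276 FPKM for WT, with all 8 genes below 0 by the labels, and erythroid markers to 125 to 429 FPKM for CD40LΔ5 and 282 to 456 FPKM for WT, with all 5 genes below 0. Neutrophil genes summed to 44.6, 81.1 and 582 FPKM in CD40LΔ5 replicates 1, 2 and 3 and to 75.4, 69.3 and 330.0 FPKM in WT replicates 1, 2 and 3, high in 2 libraries of the WT set. Among stromal and endothelial markers Pecam1, which B cells also express, made up nearly all of the sum. Kdr, Col1a1 and Pdgfrb were at 0.455 FPKM or less in every library, and Cdh5 was at 0.444 to 0.924 FPKM. No gene of these lists was called in either comparison, and their part in the differences of the factors was not tested.

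**Figure D5:**
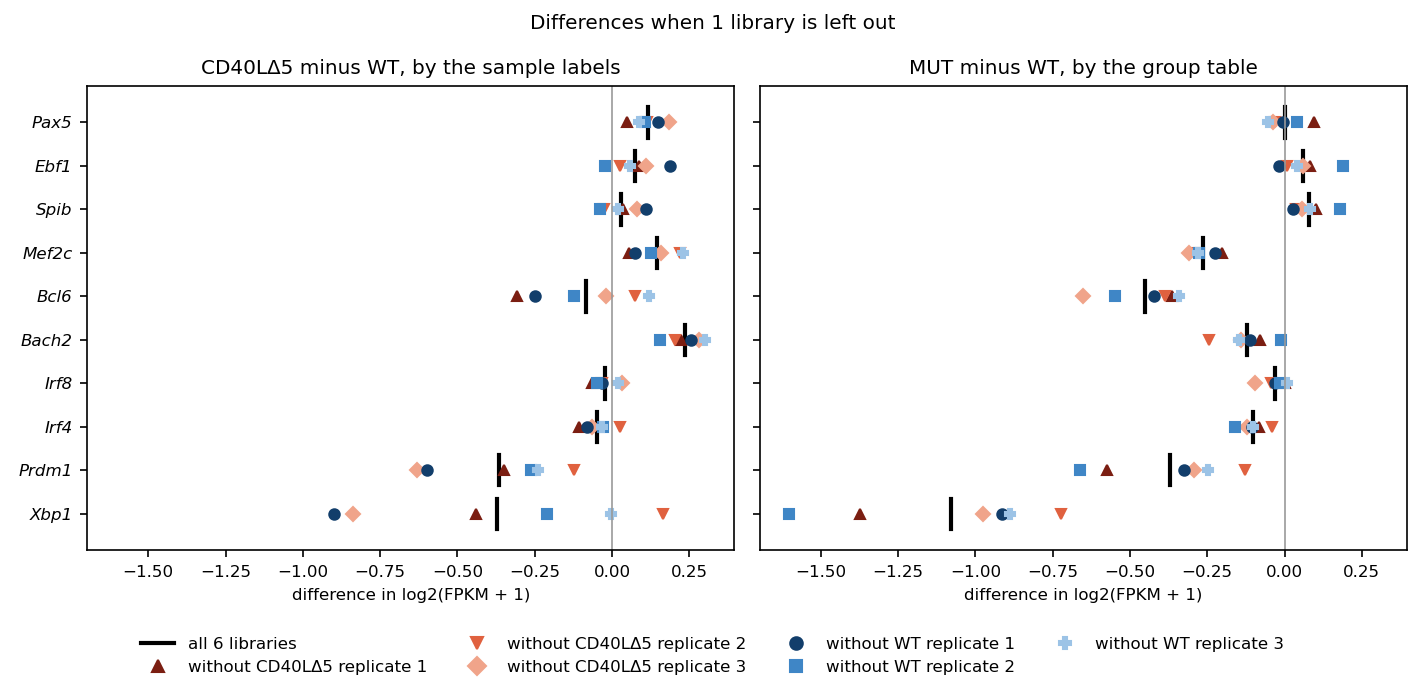
Difference in log2(FPKM + 1) of each factor in all 6 libraries (black bar) and with 1 library left out (symbols), by the labels (left) and by the table (right), on 1 horizontal scale. By the labels the differences of Bcl6, Irf4, Irf8, Spib, Xbp1 and Ebf1 change sign in at least 1 fit, while by the table those of Xbp1, Bcl6, Prdm1, Mef2c, Bach2 and Irf4 stay below 0.

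For the 3 factors of widest spread, the genes with the most similar profile were sought among 11242 tested genes, by the root mean square difference between values of log2(FPKM + 1), each centred on its gene's mean over the 6 libraries. Nearest to Xbp1 were Fut8 (0.09), which adds core fucose to N-glycans, the heavy chain variable segment Ighv1-69 (0.10) and Creld2 (0.11), itself in the plasma cell list, against a median over all genes of 0.86. Fut8 stood at 17.2, 8.00 and 30.9 FPKM in CD40LΔ5 replicates 1, 2 and 3 and at 8.69, 24.9 and 33.4 FPKM in WT replicates 1, 2 and 3. Nearest to Prdm1 were Tmem176b (0.07), Fkbp2 (0.08) and Epcam (0.08), against a median of 0.48. Nearest to Bcl6 were Ttk (0.04), a kinase of the spindle checkpoint, Spdl1 (0.05), a spindle adaptor, and D8Ertd82e (0.06), against a median of 0.36. Ttk stood at 2.94, 1.16 and 1.46 FPKM in CD40LΔ5 replicates 1, 2 and 3 and at 1.39, 1.76 and 3.04 FPKM in WT replicates 1, 2 and 3. The 1 FPKM added before the logarithm compresses the spread of low genes such as Ttk and Prdm1 in this measure. These are descriptions over 6 libraries, without a test.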

How the data were processed

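RNA was sequenced from pan-B cells of 6 spleen preparations, 3 libraries per label. Per the submitters' processing notes CASAVA 1.8.2, STAR and DESeq2 were used, without a role, and the build was mm9. The sources used here name no counting tool. The authors deposited FPKM per gene and library in 2 tables that are equal in every cell, a table of mean FPKM, and the gene lengths behind FPKM. The deposited coordinates were compared with GRCm38, although mm9 is named: 34490 of 35275 identifiers are in GENCODE M21, 24912 of them with equal coordinates and strand, among them 6 of the 10 factors. FPKM times length gave whole reads for 100% of values (tolerance 0.01 reads).

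limma 3.58.1 in R 4.3.3 (lmFit, eBayes with trend, two-sided) was run on log2(FPKM + 1) for genes averaging 1 FPKM or more. Log2 differences on this scale understate changes of low genes such as Prdm1. Adjusted p-values are over all 11252 genes, and no test was made over the 10 factors or over a list. The libraries of each mean column were found by comparing every set of 3 with it. The factors, the lists, the grouping by the table and the rule for named genes were chosen with earlier results of these data known. The rule takes the 10 factors, up to 3 genes of a list by smallest p in each comparison, of which a part is printed, the most abundant markers, and for 3 factors the 3 nearest profiles. The markers named for lying near 0 were chosen after their values were seen. Voom stood in for a count test, since the deposited unit is FPKM. The fit was tested on simulated data. Alternatives were other pseudocounts, filters, scalings, no trend, voom, a replicate block and leaving out libraries. All 10 factors matched RefSeq promoter windows (15 in all). Values of some list genes are not reported here.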

Additional observations from a re-analysis of the deposited data

How the results depend on the processing

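None of the 10 factors was called under any of the settings run, by the labels (smallest adjusted p 0.918, without CD40LΔ5 replicate 3) or by the table (smallest 0.133, Xbp1 without WT replicate 2). By the labels 0 genes were called throughout. By the sets of the table, 3 genes were called (2 higher, 1 lower), 5 with a pseudocount of 0.1 FPKM, 1 without a filter (0 higher), 0 with a filter at 5 FPKM, 1 after quantile normalization (0 higher), 1 with voom (1 higher), 4 after 75th percentile scaling (2 higher), 1 to 16 when 1 library was left out (13 without WT replicate 2, 16 without CD40LΔ5 replicate 1), and 0 without WT replicate 1 and CD40LΔ5 replicate 2. The cause of these moves was not tested. Of the recomputed log2 differences of the factors 303 kept their sign and 25 changed it. Outside the leave-out fits these were Irf8 after quantile normalization (0.0550 by the labels, 0.0906 by the table) and Pax5 by the table after 75th percentile scaling (-0.0379) and without immunoglobulin genes (-0.0416). When libraries were left out, the label differences ran from -0.31 to 0.12 for Bcl6, -0.11 to 0.0262 for Irf4, -0.0636 to 0.0330 for Irf8, -0.04 to 0.11 for Spib, -0.90 to 0.16 for Xbp1 and -0.0215 to 0.19 for Ebf1. The table differences ran from -0.0725 to 0.10 for Pax5, -0.16 to 0.0114 for Irf4, -0.10 to 0.0080 for Irf8, -0.11 to 0.18 for Spib, -0.66 to 0.21 for Prdm1 and -0.20 to 0.19 for Ebf1. With the replicate block 0 genes were called by the labels, and the block changed no call. The correlation of same-numbered deviations was -0.38, 0.06 and 0.38, and CD40LΔ5 replicate 2 was most like WT replicate 1 (0.56). Whether the numbers pair the libraries cannot be told from this, since plasma cell and germinal centre genes also varied between libraries. By the table no replicate block was possible because its sets do not hold each number once. With 3 against 3 libraries, changes smaller than the intervals given for each factor were not resolved.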
